A study of Homo sapiens with 12 samples.

Results

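The 9 genes described here are immediate early genes of 3 families, namely the zinc finger factors EGR1, EGR2 and EGR3, the orphan nuclear receptors NR4A1, NR4A2 and NR4A3, and the immediate early response genes IER2, IER3 and IER5. They were taken by symbol from count tables that list 26485 genes, and all 9 were among the 16373 genes that passed a filter on low counts. Messenger RNA had been sequenced from 2 human lung lines, A549, a lung adenocarcinoma line, and BEAS-2B (B2B), immortalized bronchial epithelial cells. Each line received 50 µM SP600125, which blocks JNK, the kinase of Jun, or 10 µM SR11302, a retinoid-related compound used against the Jun and Fos dimers of AP-1, for 72 h, or no treatment (NT). This gave 6 groups of 2 libraries, named A549_SP600125, A549_SR11302, A549_NT, B2B_SP600125, B2B_SR11302 and B2B_NT. Both lines were labelled wild type, grew in medium with serum and were detached with trypsin before lysis, and no timed stimulus was part of the protocol. The inhibitors were dissolved in DMSO, and the labels call the NT cells untreated, while the study's text sets treated cells against cells given DMSO in its expression plots, so whether the NT libraries came from cells given the solvent is not settled. Each condition was studied in a single line of its kind. The sources also do not say whether the 2 libraries of a group came from separate cultures, so p-values measure only the spread between these libraries, which may be technical.

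Immediate early genes are transcribed within minutes of a stimulus such as serum, a growth factor or stress, by factors that the cell already holds, among them SRF with its ELK partners at CArG boxes and CREB at cAMP response elements, and their mRNAs are short-lived. EGR proteins bind GC-rich DNA and are held back by the corepressors NAB1 and NAB2. NR4A receptors bind DNA without a hormone ligand, and NR4A1 and NR4A2 can pair with a retinoid X receptor. IER2 is a nuclear protein, IER3 modulates cell death, and IER5 acts on the heat shock factor HSF1.

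Promoters are shown for EGR1, EGR2 and NR4A3, because their windows held letters of the SRF or CREB motifs more than once, and for IER5, because its transcript moved otherwise than the rest. RefSeq promoters (GRCh38.p14, 250 bases before to 50 after an annotated start) matched 6 of the 9 genes at 9 starts. Capitals mark CArG boxes and the letters TGACG or their complement CGTCA, the core of the cAMP response element (CRE core). The windows are chr5:138465229-138465528 on the plus strand for EGR1, chr10:62816317-62816616 on the minus strand for the third annotated start of EGR2, chr9:99821635-99821934 on the plus strand for NR4A3 and chr1:181088450-181088749 on the plus strand for IER5.
EGR1: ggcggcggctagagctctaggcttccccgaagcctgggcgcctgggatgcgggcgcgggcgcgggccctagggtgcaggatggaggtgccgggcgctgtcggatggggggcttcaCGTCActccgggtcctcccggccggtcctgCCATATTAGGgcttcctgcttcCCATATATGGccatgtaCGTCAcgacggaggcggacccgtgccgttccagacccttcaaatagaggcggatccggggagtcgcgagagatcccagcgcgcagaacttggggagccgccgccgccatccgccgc
EGR2: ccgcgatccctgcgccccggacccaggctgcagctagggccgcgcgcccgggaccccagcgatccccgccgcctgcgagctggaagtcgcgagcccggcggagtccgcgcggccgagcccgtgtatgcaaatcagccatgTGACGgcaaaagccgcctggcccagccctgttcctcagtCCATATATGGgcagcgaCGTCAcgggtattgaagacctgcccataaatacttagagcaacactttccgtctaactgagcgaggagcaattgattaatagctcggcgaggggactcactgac
NR4A3: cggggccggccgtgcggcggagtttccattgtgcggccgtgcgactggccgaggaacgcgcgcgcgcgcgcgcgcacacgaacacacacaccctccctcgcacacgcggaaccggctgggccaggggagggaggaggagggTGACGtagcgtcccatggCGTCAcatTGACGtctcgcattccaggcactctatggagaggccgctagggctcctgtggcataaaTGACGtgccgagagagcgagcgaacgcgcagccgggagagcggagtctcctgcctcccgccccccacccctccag
IER5: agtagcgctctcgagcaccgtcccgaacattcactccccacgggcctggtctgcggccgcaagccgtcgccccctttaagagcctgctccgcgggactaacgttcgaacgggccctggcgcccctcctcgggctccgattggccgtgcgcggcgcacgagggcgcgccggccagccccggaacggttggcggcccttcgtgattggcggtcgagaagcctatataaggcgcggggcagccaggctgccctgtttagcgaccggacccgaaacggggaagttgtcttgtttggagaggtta

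The EGR1 window held 2 CArG boxes, at -105 to -96 and -83 to -74 from the start, and 2 CRE cores at -135 to -131 and -66 to -62. The EGR2 window held 1 CArG box at -71 to -62 between CRE cores at -110 to -106 and -54 to -50. NR4A3 had no CArG box and 4 CRE cores, the nearest at -25 to -21. IER2 held 1 CRE core and 4 GC boxes (GGGCGG), while the 2 NR4A1 windows and the IER5 window held neither a CArG box nor a CRE core. The second EGR2 start also held 4 GC boxes, the first EGR2 start 2, and the second NR4A1 start and NR4A3 1 each. Of 35116 human promoters of the same length, 1.29% held a CArG box and 0.0313% held 2 or more. A CRE core was held by 24.6%, 2 or more by 6.02% and 4 or more by 0.313%, and a GC box by 45% and 4 or more by 9.06%. Both strands were searched, and also for TGACGTCA, which contains the CRE core, TGANTCA (AP-1), CCGGAA (ETS), AAAGGTCA (NR4A) and GCGNGGGCG (EGR). No window of the 6 genes held TGACGTCA, TGANTCA or AAAGGTCA, against 1.85%, 7.71% and 1.22% of all promoters. CCGGAA was found at IER2, IER5 and the first NR4A1 start (17.2% of all promoters), and GCGNGGGCG at EGR1 and the second EGR2 start (9.43%). A match of letters shows no binding.

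**Figure D1:**
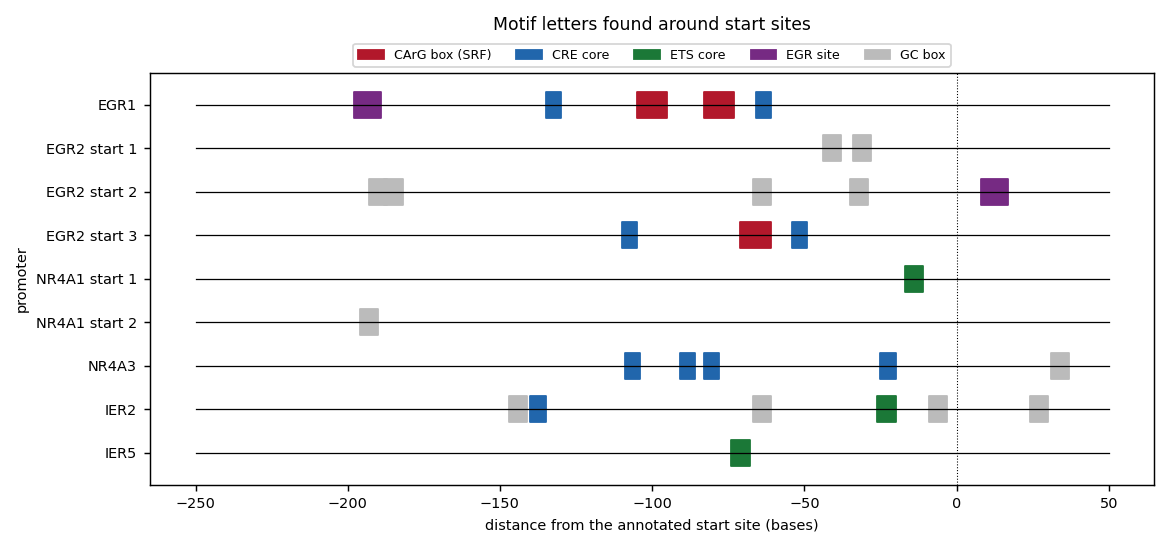
Motif matches in the 9 RefSeq promoter windows of 6 genes, by distance in bases from the annotated start site (dotted line), with 1 row per start and a colour per motif. EGR1 and the third EGR2 start hold CArG boxes flanked by CRE cores, NR4A3 holds 4 CRE cores, and IER5 holds an ETS core alone.

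Between 13969766 and 24917854 reads per library were counted in genes. Markers fitted the lines in part. KRT8 ranged from 2488 to 7150 CPM (counts brought to a common library total by TMM) in A549 and from 207 to 502 CPM in B2B, while the cadherin CDH1 reached at most 3.38 CPM in B2B. The basal keratins KRT5 and KRT14 stayed under 0.779 CPM in all 12 libraries, B2B included. TP63, another basal marker, ranged from 0.728 to 3.50 CPM in A549 and reached at most 0.0609 CPM in B2B. COL1A1, a fibroblast collagen, had 4296 and 4391 CPM in B2B_NT. The libraries of A549_SR11302 stood farther apart from each other than those of any other group, with a chi-square per gene between their counts of 44.01, against 2.58 to 13.5 in the other 5 groups. The replicate 2 libraries of both untreated groups held counts of genes abundant in the other line that replicate 1 nearly lacked, and their source was not tested. In B2B_NT, AKR1B10, an enzyme abundant in A549, had 30.4 CPM in replicate 2 (0.545% of its level in A549_NT) and 0.192 CPM in replicate 1, and in A549_NT, SPARC, a matrix gene of B2B, had 7.06 CPM in replicate 2 (0.292% of its B2B_NT level) and 0.334 CPM in replicate 1. Reads in no annotated gene made up 16.4% of tallied reads in the 8 treated libraries (14.6 to 20.1%) and 24.9% in the 4 untreated ones (23.8 to 25.9%), so this share moved with every comparison of an inhibitor with NT, and its part in them was not tested. In bulk RNA, fewer cells with a transcript and less transcript per cell cannot be told apart.

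The first comparison set the cancer line against the bronchial line without treatment. Untreated A549 held more transcript of 8 of the 9 genes, with the largest differences in NR4A1 and NR4A2, and none of the 9 was called lower. Calls needed an adjusted p below 0.05 and a log2 change of 0.5 or more in size (edgeR's quasi-likelihood test, Benjamini-Hochberg over all genes tested). This rule called 56.9% of all genes, 30.4% as higher and 26.5% as lower in A549. The 9 genes and the lists that follow were chosen with earlier results of these data known. Their counts beside such shares are therefore descriptions and no test. The median log2 fold change was 2.45 over the 9 genes, the value of the low-count gene EGR3, and 0.05 over all genes tested.

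NR4A1 (chr12:52022832-52059507, plus strand) had 359.8 and 308 CPM in A549_NT, against 6.13 and 8.10 CPM in B2B_NT. The groups lay far apart, with a log2 fold change of 5.54 ± 0.17 (SE), a 46.7-fold difference (edgeR adjusted p = 7.75e-12). Without the replicate 2 libraries of both groups, a setting chosen after seeing the data, it was 5.87 ± 0.25. NR4A2 (chr2:156324437-156342348, minus strand), the receptor needed for dopamine neurons, had 52.8 and 49.8 CPM in A549_NT, against 1.29 and 1.47 CPM in B2B_NT (5.20 ± 0.25, 36.9-fold). NR4A3 (chr9:99821855-99866891, plus strand), the third receptor, had 9.06 and 9.72 CPM in A549_NT, against 1.44 and 1.71 CPM in B2B_NT (2.57 ± 0.23). Per kilobase the 3 receptors stood in the same order in both lines, with NR4A1 at 134 CPM per kilobase of transcript in A549_NT, NR4A2 at 14.8 and NR4A3 at 1.68, against 2.86, 0.397 and 0.281 CPM per kilobase in B2B_NT.

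EGR1 (chr5:138465479-138469303, plus strand) was among the most abundant members per kilobase of transcript, at 159 CPM per kilobase in A549_NT and 83.5 in B2B_NT, beside IER3 at 157.5 and 63.3. EGR1 had 516 and 479.5 CPM in A549_NT, against 263 and 261.5 CPM in B2B_NT, a modest but separated difference (log2 fold change 0.93 ± 0.16, edgeR adjusted p = 0.000159). EGR2 (chr10:62811996-62819167, minus strand), known for its role in myelination, had 2.84 and 2.02 CPM in A549_NT, against 0.240 and 0.122 CPM in B2B_NT (3.73 ± 0.54). EGR3 (chr8:22687659-22693480, minus strand), a factor of muscle spindles and lymphocytes, had 2.28 and 1.17 CPM in A549_NT, against 0.431 and 0.204 CPM in B2B_NT (2.45 ± 0.61). Without A549_NT replicate 1 the EGR3 difference was 1.89 ± 0.77 and missed the threshold (edgeR adjusted p = 0.0510), and without B2B_NT replicate 1 it was 3.03. EGR2 and EGR3 were scarce, at 89 and 63 counts in A549_NT and 8 and 14 counts in B2B_NT over both libraries, and passed the filter on low counts (0.496 CPM in at least 2 libraries) only through the groups where they were high. That selection limits every call of EGR2 and EGR3, here and in the later comparisons.

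IER2 (chr19:13150411-13154911, plus strand) had 231 and 192 CPM in A549_NT, against 42.8 and 45.3 CPM in B2B_NT (2.26 ± 0.12). IER3 (chr6:30743199-30744548, minus strand) had 206 and 183 CPM in A549_NT, against 73.6 and 83.1 CPM in B2B_NT (1.31 ± 0.11). Both IER genes therefore stood clear of B2B in each A549 library. IER5 (chr1:181088700-181092900, plus strand), which has a single exon, went the other way, with 87.2 and 74.1 CPM in A549_NT, against 100.7 and 99.95 CPM in B2B_NT. Its log2 fold change of -0.32 ± 0.11 (edgeR adjusted p = 0.0220) was under the fold minimum. All 9 genes had ranges that did not overlap between the groups, as did 86.9% of all genes tested.

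**Figure D2:**
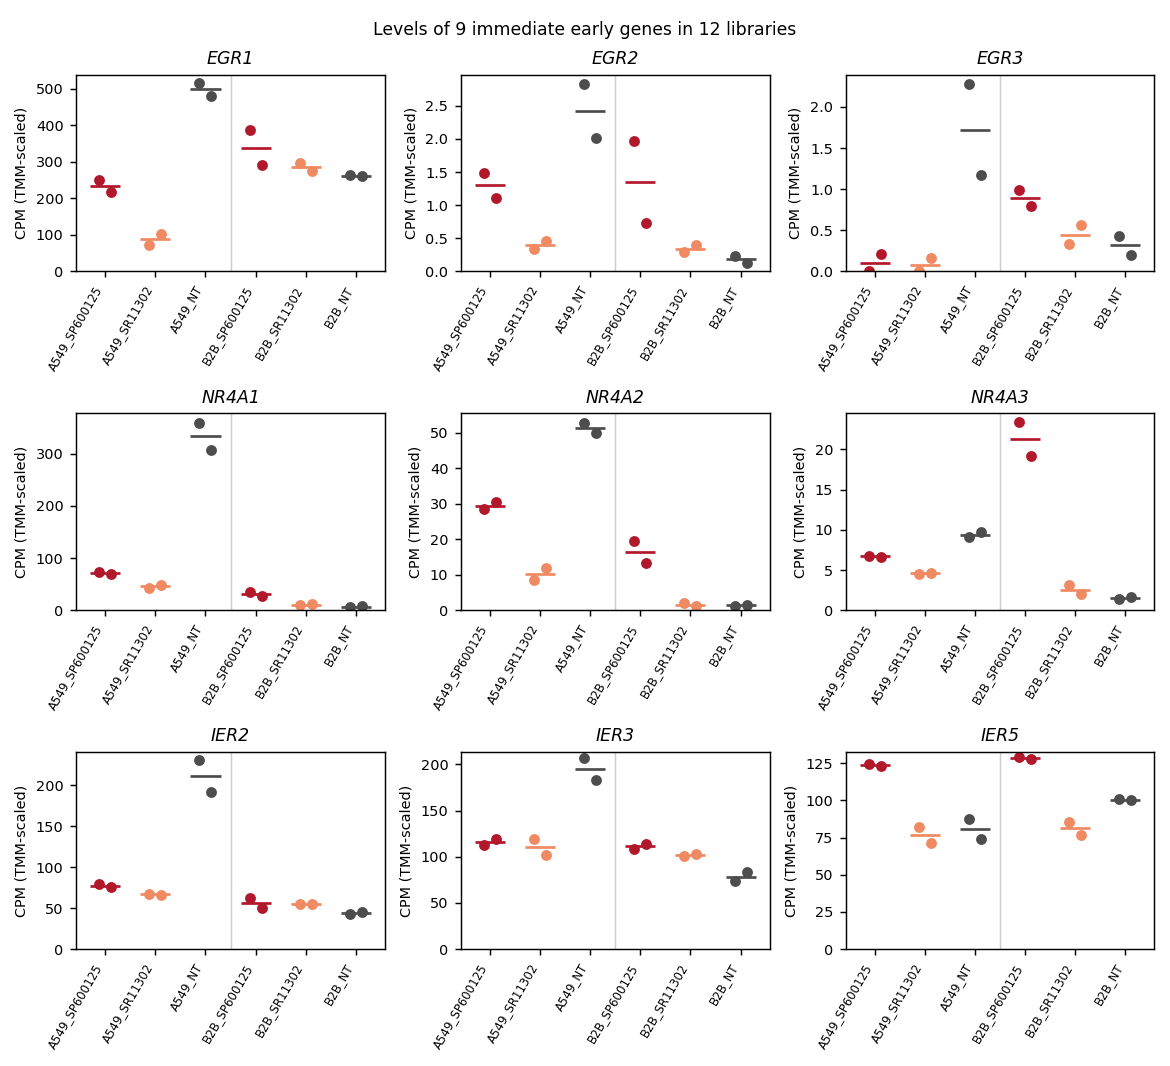
Level of each of the 9 genes in the 12 libraries, in TMM-scaled CPM on linear axes that start at 0, with SP600125, SR11302 and NT of A549 left of those of B2B. Points are libraries and lines are means of 2. In A549_NT both points lie above every other library for EGR1, EGR2, EGR3, NR4A1, NR4A2, IER2 and IER3, while NR4A3 peaks in B2B_SP600125 and IER5 is highest under SP600125 in both lines.

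The inhibitors were then compared with NT within A549. SR11302 lowered 8 of the 9 genes and raised none (the rule called 27.8% of all genes, 14.8% as higher and 13.0% as lower), with a median log2 fold change of -2.33 over the 9 and 0.02 over all genes. SP600125 lowered 6 and raised 1, IER5 (48.8% of all genes called, 23.9% higher and 25.0% lower). The median under SP600125 was -0.90 over the 9, the value of EGR2, which was not called, and 0.02 over all genes. The genes counted as lowered include EGR3 under both inhibitors and EGR2 under SR11302, which passed the filter on low counts only through groups where they were high. Of all genes called under SR11302, 53.2% were higher with TMM and 66.3% with scaling by library size only. The comparisons of both inhibitors share the untreated libraries of the line, so they are not independent of each other, and the same A549_NT libraries entered the comparison of the lines. Line markers moved in the same libraries. CDH1 had 438 and 380.5 CPM in A549_SP600125 and 97.0 and 115 CPM in A549_SR11302, against 122 and 128 CPM in A549_NT, and KRT8 had 2488 and 2525 CPM in A549_SP600125 and 3597 and 3022 CPM in A549_SR11302, against 7150 and 6339 CPM in A549_NT. Their part in the changes of the 9 genes was not tested.

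EGR1 had 249 and 217 CPM in A549_SP600125 and 71.8 and 103.5 CPM in A549_SR11302. Both groups lay below A549_NT, SR11302 the farther, with log2 fold changes of -1.09 ± 0.16 under SP600125 and -2.50 ± 0.17 under SR11302, a 5.68-fold fall (edgeR adjusted p = 6.86e-05 and 2.17e-07). EGR2 had 1.49 and 1.10 CPM in A549_SP600125 and 0.340 and 0.460 CPM in A549_SR11302. It fell under SR11302 (-2.57 ± 0.47, edgeR adjusted p = 0.00095), while under SP600125 its change of -0.90 ± 0.42 did not pass (adjusted p = 0.0805), with values from -1.13 to -0.64 over its alternatives (adjusted p = 0.0167 in a fit of these 2 groups alone, and 0.353 without A549_NT replicate 1). EGR3 was nearly lost under both inhibitors. It had 0 and 0.207 CPM in A549_SP600125 and 0 and 0.167 CPM in A549_SR11302, which is 3 and 4 counts in all, against 63 counts in A549_NT. The ratio of its levels to A549_NT was 0.0628 under SP600125 (95% counting interval 0.0126 to 0.192) and 0.0526 under SR11302 (0.0139 to 0.141), and such intervals cover counting error only. Its fall was called under both (edgeR adjusted p = 0.00121 and 0.000953), with fitted log2 fold changes of -3.92 ± 0.84 and -4.17 ± 0.76. Because of how EGR3 passed the filter on low counts, these calls are not used as support. Without replicate 1 of the treated group the fitted changes were -3.01 and -3.31, and replicate 1 alone held 0 counts. EGR3 passed the filter on low counts only through A549_NT and B2B_SP600125, so its low level in the treated A549 groups is tied to how it entered the test. EGR2 passed only through A549_SP600125, A549_NT and B2B_SP600125, so the same holds for its low level in A549_SR11302. Besides these genes, EGR1, NR4A1, NR4A2, NR4A3, IER2 and IER3 were called lower under SR11302. Besides EGR3, 5 genes were called lower under SP600125.

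NR4A1 had 73.5 and 68.7 CPM in A549_SP600125 and 42.9 and 48.9 CPM in A549_SR11302, all far below A549_NT. Its log2 fold change was -2.23 ± 0.14 under SP600125 and -2.86 ± 0.15 under SR11302, a 4.69-fold and a 7.28-fold fall (edgeR adjusted p = 8.66e-08 and 1.49e-08). NR4A2 had 28.4 and 30.4 CPM in A549_SP600125 and 8.45 and 11.9 CPM in A549_SR11302. It fell by 0.80 ± 0.19 on the log2 scale under SP600125 and by 2.33 ± 0.20 under SR11302. The treated ranges did not touch each other or A549_NT. Of all genes, 81.4% were likewise apart between A549_SP600125 and A549_NT, 62.3% between A549_SR11302 and A549_NT and 71.6% between the inhibitors. NR4A3 had 6.78 and 6.69 CPM in A549_SP600125 and 4.56 and 4.64 CPM in A549_SR11302. It fell under SR11302 (-1.03 ± 0.20) but its -0.48 ± 0.20 under SP600125 was not called (edgeR adjusted p = 0.0514), and was called at -0.50 in a fit of these 2 groups alone.

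IER2 had 79.0 and 75.5 CPM in A549_SP600125 and 67.1 and 66.2 CPM in A549_SR11302. It fell under both inhibitors, with log2 fold changes of -1.45 ± 0.12 under SP600125 and -1.66 ± 0.12 under SR11302. IER3 had 113 and 119 CPM in A549_SP600125 and 119 and 102 CPM in A549_SR11302, and fell by 0.75 ± 0.11 and 0.82 ± 0.11 on the log2 scale. IER5 had 124 and 123 CPM in A549_SP600125 and 81.9 and 71.4 CPM in A549_SR11302. It was the only one of the 9 to rise in A549, by 0.62 ± 0.11 under SP600125 (edgeR adjusted p = 0.000337), and its SR11302 libraries overlapped A549_NT (-0.07 ± 0.11). Leaving out 1 library at a time kept the number of called genes at 8 under SR11302 and at 7 under SP600125. Across 11225 genes with a mean of at least 5 CPM, log2 fold changes under SP600125 in A549 ran against the GC content of the transcript (Spearman -0.489, a description over genes of the same libraries). With a GC correction the IER2 change under SP600125 was -0.71 and still called, the IER3 change under SP600125 was -0.35 and no longer called, and the NR4A3 change was -0.59 and called. In the other comparisons the correlation with GC content ran from -0.468 (between the inhibitors in A549) to 0.243 (SR11302 against NT in B2B). For the change in A549 minus that in B2B it was -0.437 under SP600125 and -0.387 under SR11302.

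In B2B the same inhibitors gave no called fall in any of the 9 genes. SP600125 raised 5 of them, with IER3 only just at the fold minimum (43.8% of all genes called, 21.2% as higher and 22.6% as lower). The median log2 fold change was 1.51 over the 9, the value of EGR3, which was not called, and 0.01 over all genes. EGR2, among the 5, passed the filter on low counts only through groups where it was high. SR11302 raised 2 (22.5% called, 11.4% higher and 11.1% lower), with a median of 0.38 over the 9 and 0.01 over all genes, and when 1 library of these groups was left out at most 1 of these calls held. With scaling by library size only, 59.1% of all genes called under SP600125 and 61.1% under SR11302 were higher, against 48.5% and 50.7% with TMM. Without B2B_NT replicate 1 the calls over all genes under SR11302 were 2406, against 3677 with all libraries. Mesenchymal genes moved in the same libraries as the 9 genes under SP600125. COL1A1 had 372 and 382.5 CPM in B2B_SP600125 and 3031 and 3267 CPM in B2B_SR11302, against 4296 and 4391 CPM in B2B_NT. COL1A2 had 14.6 and 17.9 CPM in B2B_SP600125 and 93.8 and 77.4 CPM in B2B_SR11302, against 103 and 102 CPM in B2B_NT, and SPARC and VIM were also lower in both B2B_SP600125 libraries than in B2B_NT. Their part in the changes of the 9 genes was not tested.

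Within B2B, NR4A3 had the largest response to SP600125 of the 9 genes, with 23.4 and 19.2 CPM in B2B_SP600125, against 1.44 and 1.71 CPM in B2B_NT (log2 fold change 3.75 ± 0.22, 13.4-fold, edgeR adjusted p = 2.95e-08). This brought B2B_SP600125 above all A549 groups for NR4A3. NR4A2 had 19.5 and 13.2 CPM in B2B_SP600125, an 11.8-fold rise over B2B_NT (3.56 ± 0.26). NR4A1 had 34.4 and 27.6 CPM in B2B_SP600125, a 4.34-fold rise (2.12 ± 0.16), and stayed below every A549 group. Under SR11302 the differences were smaller, with 10.3 and 11.4 CPM of NR4A1, 1.93 and 1.24 CPM of NR4A2 and 3.17 and 1.97 CPM of NR4A3 in B2B_SR11302. NR4A1 was called (0.60 ± 0.17, edgeR adjusted p = 0.0166) and so was NR4A3 (0.73 ± 0.25, adjusted p = 0.0445), but NR4A1 was at 0.42 (adjusted p = 0.176) without B2B_NT replicate 1 and at 0.53 (adjusted p = 0.0966) without B2B_SR11302 replicate 2. Without B2B_NT replicate 2, which held counts of A549 genes, NR4A1 was at 0.82 and called (adjusted p = 0.0170). NR4A3 was at 0.61 (adjusted p = 0.222) without B2B_NT replicate 1, at 0.86 (adjusted p = 0.101) without B2B_NT replicate 2 and at 0.32 (adjusted p = 0.464) without B2B_SR11302 replicate 1, and DESeq2 did not call it (0.71, adjusted p = 0.0660).

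EGR2 had 1.98 and 0.730 CPM in B2B_SP600125, against 0.240 and 0.122 CPM in B2B_NT, and rose by 2.92 ± 0.59 on the log2 scale (edgeR adjusted p = 0.000911) on 50 counts against 8. Without B2B_SP600125 replicate 1 the EGR2 change was 1.98 and still called (adjusted p = 0.0305). EGR3 had 0.988 and 0.791 CPM in B2B_SP600125, and its change of 1.51 ± 0.67 did not pass (adjusted p = 0.0716), although without a filter on low counts it did (adjusted p = 0.0247, the lowest of its alternatives, which reached 0.355). EGR1 had 386 and 290.5 CPM in B2B_SP600125, both above B2B_NT, with a change of 0.37 ± 0.16 that was not called (adjusted p = 0.0661). The EGR1 change was 0.57 and called without B2B_SP600125 replicate 2, 0.11 (adjusted p = 0.651) without B2B_SP600125 replicate 1, and 0.51 and called with scaling by library size only. In B2B_SR11302 the EGR levels were 295.5 and 274 CPM for EGR1, 0.288 and 0.394 CPM for EGR2 and 0.329 and 0.563 CPM for EGR3. None of these 3 passed the test against B2B_NT, with changes of 0.12 ± 0.16, 0.90 ± 0.75 and 0.47 ± 0.74, and at 14 and 18 counts the depth of EGR2 and EGR3 limits what could be seen.

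IER3 had 109 and 114 CPM in B2B_SP600125, against 73.6 and 83.1 CPM in B2B_NT, and its rise of 0.50 ± 0.11 lay at the fold minimum (edgeR adjusted p = 0.00170). It was under that minimum without B2B_NT replicate 1 (0.42) or without B2B_SP600125 replicate 2 (0.48), and also with DESeq2 (0.48), with RLE size factors (0.48) and with only the groups compared (0.47), while 9 of its 15 alternatives kept the call. IER2 had 62.0 and 50.8 CPM in B2B_SP600125 (0.36 ± 0.12) and IER5 had 129 and 128 CPM (0.36 ± 0.11), both above B2B_NT but under the fold minimum. With a GC correction the IER2 change was 0.74 and called. In B2B_SR11302, IER2 had 55.6 CPM in both libraries, IER3 had 101 and 103 CPM, and IER5 had 85.7 and 76.6 CPM. Their changes from B2B_NT were 0.34 ± 0.12, 0.38 ± 0.11 and -0.31 ± 0.11, none of them called.

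**Figure D3:**
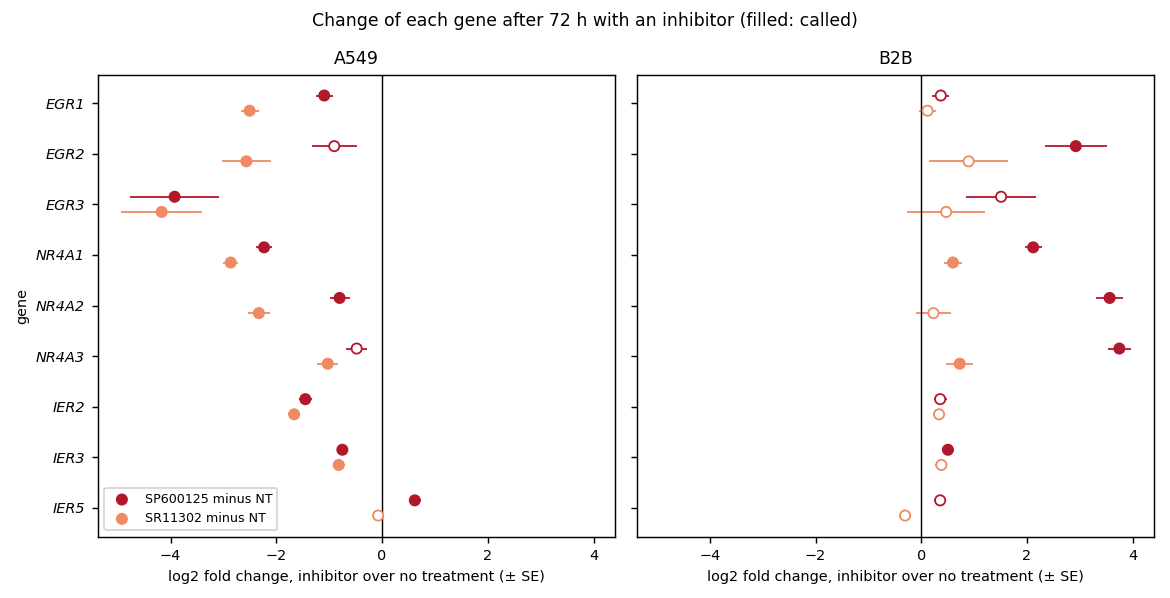
Log2 fold change of each gene under SP600125 (dark red) and SR11302 (orange) over NT, in A549 (left) and B2B (right), with bars of ± 1 SE and filled points where the change was called. In A549 8 genes lie left of 0 under both inhibitors and IER5 lies at 0.62 under SP600125, while in B2B the NR4A genes lie from 2.12 to 3.75 under SP600125.

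The difference between the lines in response was tested directly, as the change in A549 minus that in B2B. For 8 of the 9 genes it was below 0 and called under SP600125 (25.2% of all genes called, 12.1% as higher and 13.1% as lower), and for the same 8 under SR11302 (15.8% called, 8.34% higher and 7.41% lower). Both differences used the same A549_NT and B2B_NT libraries, so they are not independent of each other or of the comparison of the untreated lines. The count over all genes moved with single libraries. Under SP600125 there were 4121 calls, and 2741 without A549_SP600125 replicate 1. Under SR11302 there were 2579 calls, and 4768 without A549_SR11302 replicate 1, 1375 without A549_NT replicate 1, 1498 and 1573 without B2B_NT replicates 1 and 2, and 1617 without B2B_SR11302 replicate 2. Without replicate 2 of both untreated groups there were 2277 under SP600125 and 1295 under SR11302. Under SP600125 the difference was -4.35 ± 0.22 for NR4A1, -4.36 ± 0.32 for NR4A2 and -4.23 ± 0.30 for NR4A3 on the log2 scale. Under SR11302 it was -3.46 ± 0.22 for NR4A1, -2.56 ± 0.39 for NR4A2 and -1.75 ± 0.32 for NR4A3. EGR1 differed by -1.46 ± 0.23 under SP600125 and -2.62 ± 0.23 under SR11302. The median over the 9 genes was -3.83 under SP600125, the value of the scarce gene EGR2, and -2.56 under SR11302, and over all genes -0.01 and 0.00. The 8 genes called under each inhibitor include EGR2 and EGR3, which passed the filter on low counts only through groups where they were high. IER5 was the exception, at 0.26 ± 0.16 under SP600125 (edgeR adjusted p = 0.239) and 0.23 ± 0.16 under SR11302 (adjusted p = 0.337).

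Under SR11302 the calls for EGR2 and EGR3 depended on single libraries. Without A549_NT replicate 1 they were at -3.20 (edgeR adjusted p = 0.0600) and -4.09 (adjusted p = 0.0571), and without B2B_SR11302 replicate 2 at -3.25 (adjusted p = 0.0883) and -4.25 (adjusted p = 0.0687). EGR2 was also lost without B2B_NT replicate 2 (-3.04, adjusted p = 0.0744). Under SP600125 all 8 calls held when libraries of the 4 groups were left out in turn, while EGR2 was at -2.88 without B2B_SP600125 replicate 1 and EGR3 at -4.52 without A549_SP600125 replicate 1 and -6.02 without B2B_NT replicate 1. Under SR11302 EGR3 was at -3.78 without A549_SR11302 replicate 1 and -5.23 without B2B_NT replicate 1, and without replicate 2 of either treated A549 group its remaining library held 0 counts.

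**Figure D4:**
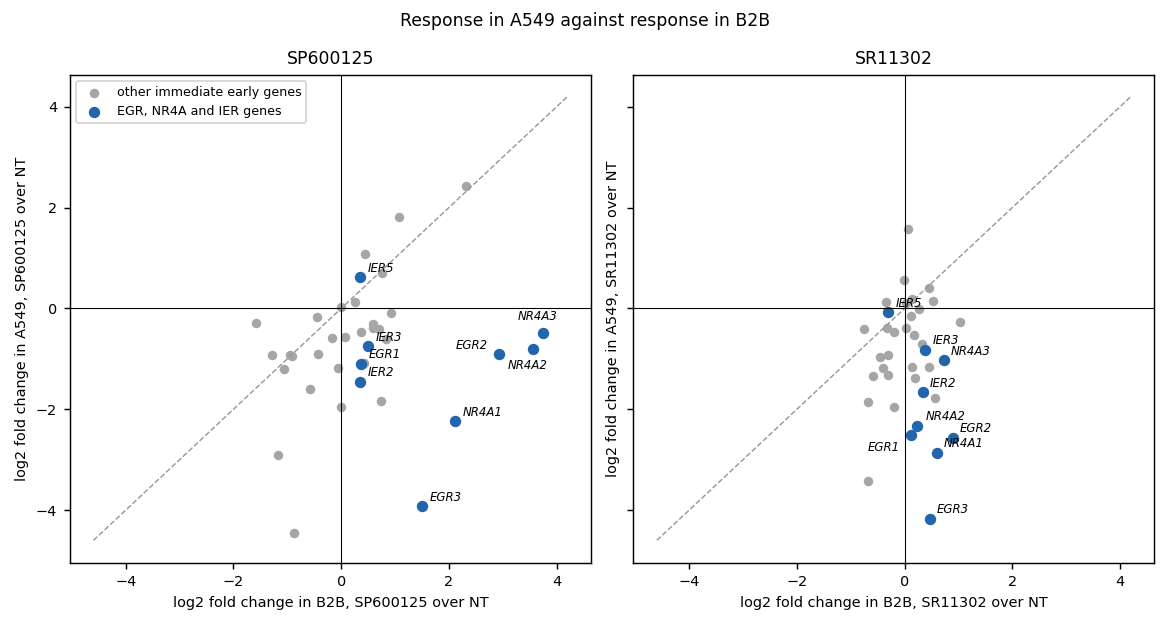
Log2 fold change in A549 (vertical) against that in B2B (horizontal) under SP600125 (left) and SR11302 (right), for the 9 genes (blue) and 28 other immediate early genes (grey), with the line of equal change dashed. All blue points but IER5 lie right of 0 and below 0, with NR4A3 at 3.75 and -0.48 under SP600125. The lowest grey point under SP600125, DUSP2, rests on 0 counts in both A549_SP600125 libraries.

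After treatment the lines stood closer for some genes and in another order for others. EGR3, counted below as lower in A549 under SP600125, passed the filter on low counts only through A549_NT and B2B_SP600125. Under SP600125, 2 genes were higher in A549, NR4A1 (1.20 ± 0.15) and NR4A2 (0.84 ± 0.20), and 3 were lower, EGR1 (-0.54 ± 0.16), EGR3 (-2.99 ± 0.94) and NR4A3 (-1.66 ± 0.19), among 58.2% of all genes called (30.0% higher and 28.2% lower). The EGR1 difference was not called without A549_SP600125 replicate 2 (-0.44) or B2B_SP600125 replicate 1 (-0.32), and the EGR3 difference not without A549_SP600125 replicate 1 (-2.08) or B2B_SP600125 replicate 1 (-2.81). Under SR11302, NR4A1 (2.08 ± 0.16), NR4A2 (2.65 ± 0.26) and NR4A3 (0.81 ± 0.22) were higher and EGR1 (-1.70 ± 0.17) lower in A549, among 56.5% of all genes called (29.9% higher and 26.6% lower), and NR4A3 was at 0.54 and not called without B2B_SR11302 replicate 2. EGR1 thus stood below B2B in A549 under both inhibitors and above it in NT. IER2 (0.45 ± 0.12) was not called between the lines under SP600125, and was at 0.61 and called without B2B_SP600125 replicate 1. IER3 stood between 101 and 119 CPM in all 8 treated libraries of both lines, with overlapping ranges between A549_SP600125, B2B_SP600125 and A549_SR11302.

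The inhibitors, given at different doses, were also set against each other within a line. EGR2, counted as higher in both lines, passed the filter on low counts only through groups where it was high, both SP600125 groups included. In A549, 6 genes were higher under SP600125 than under SR11302 and none was lower (37.1% of all genes called, 16.6% higher and 20.5% lower). These were EGR1 (1.41 ± 0.16), EGR2 (1.66 ± 0.53), NR4A1 (0.63 ± 0.14), NR4A2 (1.53 ± 0.20), NR4A3 (0.55 ± 0.21) and IER5 (0.69 ± 0.11), of which NR4A3 was not called when any 1 library of either group was left out or with DESeq2 (0.54, adjusted p = 0.0742) and EGR2 not without A549_SR11302 replicate 1 (1.48) or A549_SP600125 replicate 1 (1.44). IER2 (0.21 ± 0.12) and IER3 (0.07 ± 0.11) did not pass, while with a GC correction IER2 was at 0.77 and called. In B2B, 5 genes were higher under SP600125 and none lower (33.7% called, 15.6% higher and 18.1% lower), with NR4A2 at 3.33 ± 0.26, NR4A3 at 3.02 ± 0.21, EGR2 at 2.03 ± 0.53, NR4A1 at 1.52 ± 0.16 and IER5 at 0.66 ± 0.11. The EGR2 call was lost without B2B_SR11302 replicate 1 (1.79) or B2B_SP600125 replicate 1 (1.10).

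Over the 6 groups, the order of levels differed by gene. NR4A1 ran A549_NT, A549_SP600125, A549_SR11302, B2B_SP600125, B2B_SR11302 and B2B_NT, with means of 334, 71.1, 45.9, 30.99, 10.9 and 7.12 CPM, and every step was larger than the summed SDs of its neighbours. EGR1 ran A549_NT, B2B_SP600125, B2B_SR11302, B2B_NT, A549_SP600125 and A549_SR11302, with means of 498, 338.5, 285, 262, 233 and 87.6 CPM. Only B2B_SP600125 and B2B_SR11302 were within the spread, where beyond it means ranges apart and a gap over the summed SDs. Such a gap between 2 libraries per group is no test. Between B2B_SR11302 and B2B_NT, EGR1 (0.12 ± 0.16, edgeR adjusted p = 0.612) and EGR2 (adjusted p = 0.394) stood beyond the spread but did not pass the test. For this pair, ranges did not overlap in 69.3% of all genes, and over the pairs of groups that were compared this share ran from 62.3% to 86.9%. The share of all genes beyond the spread was not computed, so these orders are descriptions only. NR4A2 neighbours within the spread were B2B_SP600125 with A549_SR11302 and B2B_SR11302 with B2B_NT, and NR4A3 neighbours within it were B2B_SR11302 and B2B_NT. IER2 was within the spread between B2B_SP600125 and B2B_SR11302 only. IER3 had 3 such neighbouring pairs among its 4 middle groups. IER5 ran from 128.5 ± 1.20 CPM (SD, n = 2) in B2B_SP600125 to 76.6 ± 7.39 CPM in A549_SR11302, and B2B_SR11302, A549_NT and A549_SR11302 at its low end were within the spread. EGR2 had 3 and EGR3 had 4 neighbouring pairs within it.

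The genes whose profile was most like each member were found by the root mean square difference of centred log2 levels over the 12 libraries, among 11330 genes with a mean of at least 5 CPM. FOS, the Fos subunit of AP-1, came first for both NR4A1 (0.40) and NR4A2 (0.33), and averaged 139 CPM in A549_SP600125, 67.4 in A549_SR11302, 317 in A549_NT, 57.9 in B2B_SP600125, 12.4 in B2B_SR11302 and 8.38 in B2B_NT. The next for NR4A1 were MYO15B (0.62) and NR4A2 (0.65), and for NR4A2 SAT1, a polyamine acetyltransferase, and NR4A1 (0.65 each). NR4A3 was nearest to SVEP1 (0.52), NXPH4 (0.62) and DUSP6 (0.66). EGR1 was nearest to the kinase SGK1 (0.42) and the factor KLF2 (0.46), both also listed as immediate early genes, and to PLXNC1 (0.49). EGR2 was nearest to GPX3 (0.34), NRARP (0.40) and PPP1R15A (0.41), and EGR3 to C1QL4 (0.43), RHOB (0.44) and IBA57 (0.45). Both EGR2 and EGR3 lay under the 5 CPM asked of their neighbours. The 0.5 CPM added before taking logs flattened their profiles, so these neighbours understate the size of their changes. IER2 was nearest to DNM1 (0.30), THOC6 (0.32) and BIN1 (0.32), IER3 to PTPN18 (0.14), ABHD12 (0.16) and DNAH1 (0.18), and IER5 to KIN (0.10), SGPL1 (0.11) and MSL1 (0.12). Among the 9 genes themselves, IER2 and IER3 were the most alike pair (0.37). Genes with a small spread over the libraries, such as IER5, have near neighbours by this measure more readily.

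Beside the 9 genes, 28 other immediate early genes were followed. In untreated A549 against B2B, 14 of the 28 were higher and 4 lower (median log2 fold change 0.62), beside 30.4% of all genes higher and 26.5% lower, among them the kinase gene SIK1 (3.82 ± 0.14), TRIB1 (3.52 ± 0.14) and PTGS2, the inducible prostaglandin synthase, with 1494 and 1717 counts in A549_NT, against 1 and 15 in B2B_NT. The phosphatase gene DUSP2 was lower, with 1 and 4 counts in A549_NT, against 37 and 30 in B2B_NT. In A549, 14 were lower and 4 higher under SP600125 (median -0.57, beside 25.0% and 23.9% of all genes), and 14 lower and 2 higher under SR11302 (median -0.49, beside 13.0% and 14.8%). The largest changes were MAFF, a small Maf factor, at -2.92 ± 0.27, BTG2, an antiproliferative gene, at 2.43 ± 0.14, ZFP36, which destabilizes mRNAs, at -1.95 ± 0.11 and CSRNP1 at -1.83 ± 0.14 under SP600125. Under SR11302 they were KLF2 at -3.42 ± 0.21, MAFF at -1.96 ± 0.23, SGK1 at -1.86 ± 0.12 and ZFP36 at -1.78 ± 0.11. In B2B, 9 were higher and 5 lower under SP600125 (median 0.04, beside 21.2% and 22.6% of all genes), with BTG2 at 2.32 ± 0.14, MAFF at -1.18 ± 0.22, BTG1 at 1.08 ± 0.15 and ZFP36L2 at -1.07 ± 0.13, and 2 were higher and 4 lower under SR11302 (median 0.03, beside 11.4% and 11.1%), with ATF3 at -0.75 ± 0.15, KLF2 at -0.69 ± 0.18, SGK1 at -0.67 ± 0.12 and KLF6 at -0.58 ± 0.12. The difference between the lines was called lower for 13 and higher for 2 of the 28 under SP600125 (median -0.56, beside 13.1% and 12.1% of all genes), with CSRNP1 at -2.57 ± 0.20, and lower for 12 and higher for 1 under SR11302 (median -0.56, beside 7.41% and 8.34%), with KLF2 at -2.73 ± 0.28 and ZFP36 at -2.34 ± 0.16.

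Of 8 relatives and cofactors of the 3 families, 6 were tested. EGR4 had 4 and 2 counts in A549_NT and 0 in the other 10 libraries, and RXRG had 0 in all 12. Of the 6, 3 were higher and 2 lower in A549_NT than in B2B_NT (median log2 fold change 0.41), 1 higher and 2 lower under SP600125 in A549 (-0.22), 2 lower under SR11302 in A549 (-0.23), 1 lower under SP600125 in B2B (0.01) and 2 higher and 1 lower under SR11302 in B2B (0.17). The shares of all genes called in these comparisons were 56.9%, 48.8%, 27.8%, 43.8% and 22.5%, in the same order. IER5L, the relative of IER5, was higher in A549_NT than in B2B_NT (2.26 ± 0.13), lower under SP600125 (-0.89 ± 0.12) and SR11302 (-1.24 ± 0.12) in A549 and higher under SR11302 in B2B (0.62 ± 0.13). RXRB, a retinoid X receptor, was lower in A549_NT than in B2B_NT (-1.10 ± 0.12). NAB2, the corepressor of EGR1, was lower in A549_NT than in B2B_NT (-0.96 ± 0.13) and higher under SR11302 in B2B (0.54 ± 0.12), and NAB1 was higher under SP600125 in A549 (0.78 ± 0.17). WT1, a zinc finger factor with a related DNA-binding domain, had 16.8 and 16.9 CPM in A549_NT, against 1 and 5 counts in B2B_NT, and fell in A549 under SP600125 (-0.85 ± 0.19) and SR11302 (-0.65 ± 0.18). It was the gene called lower in B2B under each inhibitor, where the treated libraries held 0 counts, but 5 of its 6 counts in B2B_NT lay in replicate 2, the library that held counts of A549 genes, and WT1 passed the filter only through A549, so no direction is drawn from this call.

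The next list held genes that encode regulators of immediate early transcription. Of 18 tested, 1 was higher and 4 lower in A549_NT than in B2B_NT (median -0.16, beside 30.4% and 26.5% of all genes), with RPS6KA3 at 1.57 ± 0.20 and RPS6KA5 at -1.36 ± 0.17. In A549, 2 were higher and 4 lower under SP600125 and 1 higher and 3 lower under SR11302 (48.8% and 27.8% of all genes called in either direction). The largest change was that of RPS6KA4, at -2.11 ± 0.16 under SP600125, while the related kinase RPS6KA5, which like it phosphorylates CREB and histone H3, was higher, at 1.82 ± 0.18 under SP600125 and 1.29 ± 0.17 under SR11302. SRF was at -1.20 ± 0.11 under SP600125 and -0.66 ± 0.11 under SR11302. In B2B, 5 were higher and 3 lower under SP600125, with RPS6KA4 at -2.32 ± 0.16 and RPS6KA5 at 1.49 ± 0.15, and 2 were higher and 0 lower under SR11302, CRTC3 (0.62 ± 0.09) and MAPK3 (0.90 ± 0.12), beside 43.8% and 22.5% of all genes called in either direction. The difference between the lines was called lower for 5 and higher for 1 under SP600125 (25.2% of all genes called), with CRTC1, a coactivator of CREB, at -1.05 ± 0.21 and RPS6KA1 at -1.03 ± 0.19. Under SR11302 the difference was called lower for 3 and higher for 2 (15.8% of all genes called).

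Feedback genes of the ERK pathway, which are induced by the same signal, were the last list. Of 12 tested, 7 were higher and 2 lower in A549_NT than in B2B_NT (median 0.66, beside 30.4% and 26.5% of all genes), with the phosphatases DUSP5 at 3.09 ± 0.13 and DUSP6 at 1.60 ± 0.20 and the factor ETV4 at 2.65 ± 0.20. Under SP600125, 1 was higher and 4 lower in A549 (median -0.20), with the pathway inhibitor SPRY4 at -1.96 ± 0.15, its relative SPRY2 at -0.999 ± 0.13 and ETV4 at -0.83 ± 0.19, and 6 were higher and 6 lower in B2B (median -0.01), with DUSP6 at 1.76 ± 0.19, SPRY1 at 1.68 ± 0.20 and ETV4 at -1.41 ± 0.25. Under SR11302, 1 was higher and 2 lower in A549 and 1 was higher and 2 lower in B2B, with SPRY4 at -0.92 ± 0.13 and DUSP4 at -0.91 ± 0.10 in A549 and ETV4 at 1.06 ± 0.20 and DUSP4 at -1.05 ± 0.11 in B2B. Of all genes, 48.8% and 27.8% were called under SP600125 and SR11302 in A549, and 43.8% and 22.5% in B2B. The difference between the lines was called lower for 7 and higher for 1 under SP600125 (median -0.84, beside 13.1% and 12.1% of all genes). Under SR11302 the difference was called lower for 3 and higher for 2 (median -0.27, beside 7.41% and 8.34% of all genes).

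The counts of some members carry limits of annotation. NR4A1 overlaps NR4A1AS, NR4A3 overlaps STX17-DT, and EGR3, IER2 and IER3 overlap other genes, all on the opposite strand, while EGR2 overlaps an unnamed gene of its own strand, and the strand setting of the counting is not given in the sources used here, so reads of such partners cannot be told apart. Of the 31-base words of each transcript, 94.0% (IER2) to 100% (NR4A1) occur once in the primary hg38 chromosomes. For IER3, which lies in the major histocompatibility region, 97.4% of words also occur on alternate contigs. If the alignment genome held these, reads of IER3 would have been set aside as aligning to several places, so its level against other genes is uncertain.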

How the data were processed

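RNA of 12 libraries, 2 in each of 6 groups taken from the labels, was selected by the authors for polyadenylated transcripts, sequenced on Illumina instruments, aligned to hg38 with STAR (version 2.7.10a) and tallied by gene with HTSeq (version 1.99.2). What was deposited are whole-number counts without normalization. Annotation, strand setting and read length: not given in the sources used here. HTSeq sets aside ambiguous reads (1.31% in treated and 1.96% in untreated libraries) and reads that align to several places (19.1% and 21.0%). Neither tally entered a library size or test. No column of per-sample values was left unused.

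All libraries entered one edgeR fit (version 4.0.16, R version 4.3.3) by group, with filterByExpr, TMM and the quasi-likelihood F test (6 residual degrees of freedom), after testing on simulated data. Calls needed an adjusted p below 0.05 and a log2 change of 0.5 or more in size, the study's minimum. SEs were derived from fold changes and F statistics, and CPM were TMM-scaled. Named genes were all 9 members, up to 4 called genes per list and comparison with the largest change, and the 3 genes nearest to each member. The members and lists were chosen with earlier results of these data known. Positions are from GENCODE 44 (24542 of 26485 symbols matched, 1381 through an older symbol) and promoters from RefSeq. Alternatives were other size factors, no low-count filter, DESeq2 (version 1.42.0), only the groups compared, other fold minimums, a GC correction, a replicate block and leaving out libraries. Figures used matplotlib (version 3.10.9).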

Additional observations from a re-analysis of the deposited data

Results flagged for a closer look

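The responses of 8 genes differed between the lines by the test of the difference itself (change in A549 minus change in B2B, log2 ± SE, edgeR quasi-likelihood, adjusted over 16373 genes). Under SP600125 the difference was -1.46 ± 0.23 for EGR1 (adjusted p = 0.000483), -3.83 ± 0.73 for EGR2 (adjusted p = 0.00196) and -5.43 ± 1.10 for EGR3 (adjusted p = 0.00281). For the receptors it was -4.35 ± 0.22 for NR4A1 (adjusted p = 6.22e-08), -4.36 ± 0.32 for NR4A2 (adjusted p = 1.39e-06) and -4.23 ± 0.30 for NR4A3 (adjusted p = 9.93e-07). IER2 differed by -1.81 ± 0.17 (adjusted p = 9.43e-06) and IER3 by -1.25 ± 0.16 (adjusted p = 9.43e-05).

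Under SR11302 the difference was -2.62 ± 0.23 for EGR1 (adjusted p = 7.74e-06), -3.46 ± 0.90 for EGR2 (adjusted p = 0.0182) and -4.64 ± 1.12 for EGR3 (adjusted p = 0.0125). NR4A1 differed by -3.46 ± 0.22 (adjusted p = 8.12e-07), NR4A2 by -2.56 ± 0.39 (adjusted p = 0.000598) and NR4A3 by -1.75 ± 0.32 (adjusted p = 0.00226). IER2 differed by -2.00 ± 0.17 (adjusted p = 5.98e-06) and IER3 by -1.20 ± 0.16 (adjusted p = 0.000177). The differences under SP600125 and SR11302 used the same A549_NT and B2B_NT libraries, so they are not independent of each other. The values for EGR3 rest on 3 and 4 counts in the treated A549 groups. Both EGR2 and EGR3 passed the filter on low counts only through groups where they were high.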

How the results depend on the processing

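No change of any of the 9 genes that was called reversed its direction under any alternative. The number called out of 9 moved by over 1.5 times in 4 comparisons. In B2B_SR11302 against B2B_NT it was 2, and became 1 with DESeq2, 1 with only the groups compared, 4 with no fold minimum, 0 with a fold minimum of 1 and, chosen after seeing the data, 1 without replicate 2 of both untreated groups. A fold minimum of 1 gave 4 in place of 7 for A549_SP600125 against A549_NT, 3 in place of 6 for A549_SP600125 against A549_SR11302 and 3 in place of 5 for A549_SP600125 against B2B_SP600125. With 1 library left out at a time the number ranged from 0 to 1 for B2B_SR11302, from 4 to 5 for A549_SP600125 against A549_SR11302, from 6 to 8 for the difference between the lines under SR11302 and from 7 to 8 between the untreated lines. Over all genes, a fold minimum of 1 gave 2276 calls in place of 4557 for A549_SR11302, 4435 in place of 7997 for A549_SP600125, 1746 in place of 3677 for B2B_SR11302, 3798 in place of 7174 for B2B_SP600125, 1422 in place of 2579 and 2141 in place of 4121 for the differences between the lines under SR11302 and SP600125, 2871 in place of 6078 and 2608 in place of 5522 between the inhibitors in A549 and B2B, and 5906 in place of 9248 and 6308 in place of 9531 between the lines under SR11302 and SP600125. With 1 library left out, all-gene calls of the difference under SR11302 ranged from 1375 to 4768.

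Whether replicate numbers paired the samples was not settled. The correlation of same-numbered libraries was over 0.1 in 3 of 15 pairs of groups (-0.50 to 0.45). These were A549_NT with A549_SR11302 (0.45), B2B_NT with B2B_SR11302 (0.17) and B2B_SR11302 with A549_SP600125 (0.14). A count over pairs of different lines and inhibitors cannot decide on pairing within a line. A replicate block gave 1 call for B2B_SR11302 and ended those of NR4A3 there (0.71, adjusted p = 0.0582) and between the inhibitors in A549 (0.55, adjusted p = 0.0520), while 97 of 99 gene results were as before. A GC correction kept 94 of 99. Scaling by library size only moved the median of all genes by -0.12 between the untreated lines, 0.12 for A549_SR11302, 0.14 for B2B_SP600125 and -0.18 between the lines under SP600125, and kept 97 of 99 gene results. Depth limits EGR2 and EGR3, where a library with 3 counts stands at 0.122 to 0.224 CPM.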

Other observations

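PECAM1, an adhesion gene of endothelium that was used here as a marker of other cells, had 7.08 and 6.27 CPM in A549_SP600125, against 0.0556 and 0.212 CPM in A549_NT, and 3.59 and 4.87 CPM in B2B_SP600125, against 0 counts in both B2B_NT libraries. The leukocyte marker PTPRC stayed at or under 0.370 CPM in all 12 libraries.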
